A study of Homo sapiens with 9 samples.

Results

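The transcripts described here are those of 39 cell cycle and mitosis genes, taken by gene symbol from a table of 62703 genes in 9 RNA sequencing libraries. Each symbol matched a single line of the table, and all 39 passed the filter on low values, a mean of at least 1 TPM (a length-scaled share of all transcripts in a library) over the 9 libraries, which kept 13443 genes in all. The cells are labelled HepG2, a human liver carcinoma line, and 3 libraries came from each of 3 treatments. One group had 750 µM of the saturated fatty acid palmitic acid over 24 h, and then 20 µM curcumin, a plant polyphenol, together with 5 µM CuCl2 for 12 h. The next had the same palmitic acid exposure and then 20 µM curcumin for 12 h, and the last had palmitic acid alone for 24 h. Every group thus carries palmitic acid. The labels describe no vehicle and no later harvest for palmitic acid alone, so the added 12 h cannot be told apart from the added compounds. They also do not say that replicates were separate cultures, so p-values cover only how these libraries vary, which may be technical.

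Cells divide by passing in order through G1, S (DNA synthesis), G2 and M (mitosis). E2F transcription factors switch on genes for DNA synthesis late in G1. MYBL2 and FOXM1, working with the MuvB complex, switch on mitotic genes in S and G2, and the anaphase-promoting complex then destroys many of the products so that cells can leave mitosis. The messenger RNAs of most of these genes rise and fall within each cycle, and in cultured carcinoma cells they are widely used as signs of proliferation. In RNA from a whole culture, a change in the share of cells in a phase and a change in transcript per cell cannot be told apart.

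The liver label was not borne out by the markers listed for it. Among 15 genes that mark hepatocytes, 14 averaged below 1 TPM and 6 were listed at 0 in every library, among them ALB. The exception was CPS1, a urea cycle gene, at 309 TPM. Keratin transcripts were plentiful, KRT7 averaging 1216 TPM, KRT8 892 TPM and KRT18 862 TPM, and 4 of 4 endothelial, 5 of 6 fibroblast and 3 of 5 leukocyte and Kupffer cell markers were under 1 TPM. The summed hepatocyte markers, nearly all of it CPS1, ranged from 307 to 328 TPM with curcumin and CuCl2, from 281 to 358 TPM with curcumin and from 264 to 329 TPM with palmitic acid alone. The summed epithelial list of 6 genes, of which KRT19, EPCAM and CDH1 averaged under 1 TPM, did move with treatment. It ranged from 2637 to 2715 TPM with curcumin and CuCl2, from 2505 to 2865 TPM with curcumin and from 3314 to 3812 TPM with palmitic acid alone, and its part in the results below was not tested. The summed fibroblast list ranged from 10.5 to 14.1 TPM, 12.6 to 16.6 TPM and 9.18 to 14.5 TPM in the same order of groups.

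The cell cycle genes were abundant under every treatment. Their median level was 71.5 TPM, against 12.8 TPM for all genes kept, and it lay above 85.0% of them. The range of member means ran from 5.26 TPM for CCNE2 to 428 TPM for RRM1. Together the 39 genes made up 3643, 3719 and 3696 TPM in the libraries with curcumin and CuCl2, 3613, 3944 and 3693 TPM with curcumin, and 3937, 3864 and 3425 TPM with palmitic acid alone. The summed level was therefore lowest in replicate 3 of palmitic acid alone and highest in replicate 2 of curcumin, and the 3 groups overlapped.

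**Figure D1:**
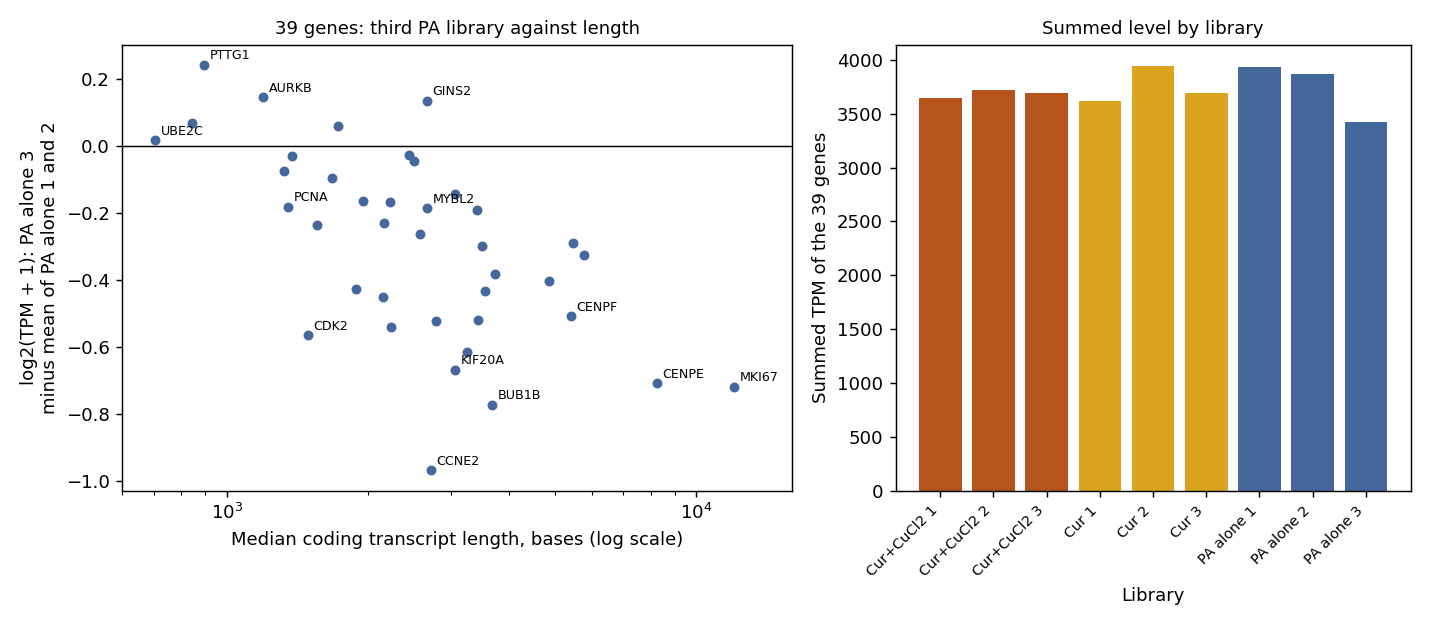
Left, log2(TPM + 1) of each of the 39 genes in replicate 3 of palmitic acid alone minus its mean in replicates 1 and 2, against the median length of its coding transcripts in bases on a log axis. Right, summed TPM of the 39 genes in each library, where PA is palmitic acid alone, Cur is curcumin and the lowest bar, 3425 TPM, is the third library of palmitic acid alone.

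Those libraries stood apart across many of the genes. Replicate 3 of palmitic acid alone held the lowest value of the 9 libraries for 22 of the 39 genes, as it did for 36.1% of all genes kept. Replicate 2 of curcumin held the highest value for 16 of the 39, against 21.9% of all genes, and replicate 1 of palmitic acid alone for 11 of the 39, against 29.4%. In replicate 3 of palmitic acid alone, genes with longer transcripts tended to be lower, though the lowest of all were not the longest. CCNE2, with a transcript of 2724 bases, stood there at 0.511 times its mean in the other 2 libraries of that group on the TPM + 1 scale, and BUB1B, with 3676.5 bases, at 0.585 times. MKI67 and CENPE, with 12047.5 and 8260 bases, stood at 0.608 and 0.612 times. The short transcripts of PTTG1 and AURKB, with 895 and 1197 bases, stood at 1.18 and 1.11 times. Across the 39 genes this difference correlated with transcript length at a Pearson r of -0.62 and a Spearman rho of -0.63, and across 11158 genes with a length at -0.48 and -0.50. Taken the same way, Pearson r across the 39 genes was 0.62 and 0.40 in replicates 1 and 2 of palmitic acid alone. Trends with length were also seen within the other groups. There r was -0.47, 0.58 and -0.55 in replicates 1 to 3 of curcumin, and -0.35, 0.41 and -0.06 with CuCl2 added. The differences within a group cancel out for each gene, so opposite signs within a group are forced. They therefore cannot show which library of a group departs from the others. These are descriptions across genes that share the same libraries. Mitochondrial genes held 10.1% of the TPM in replicate 3 of palmitic acid alone, against 12.98% and 12.5% in its replicates 1 and 2. In the curcumin group they held 10.4%, 12.4% and 10.9%, and with CuCl2 added 10.7%, 11.8% and 11.4%. Within groups the genes had a median standard deviation (SD) of 0.12 on the log2 scale, running from 0.03 for CDC20 to 0.45 for CCNE2. The median was 0.16 for 9144 other genes with a level anywhere between the lowest and highest member. Those genes were not matched to the members by level, so the medians do not compare spread at equal level.

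**Figure D2:**
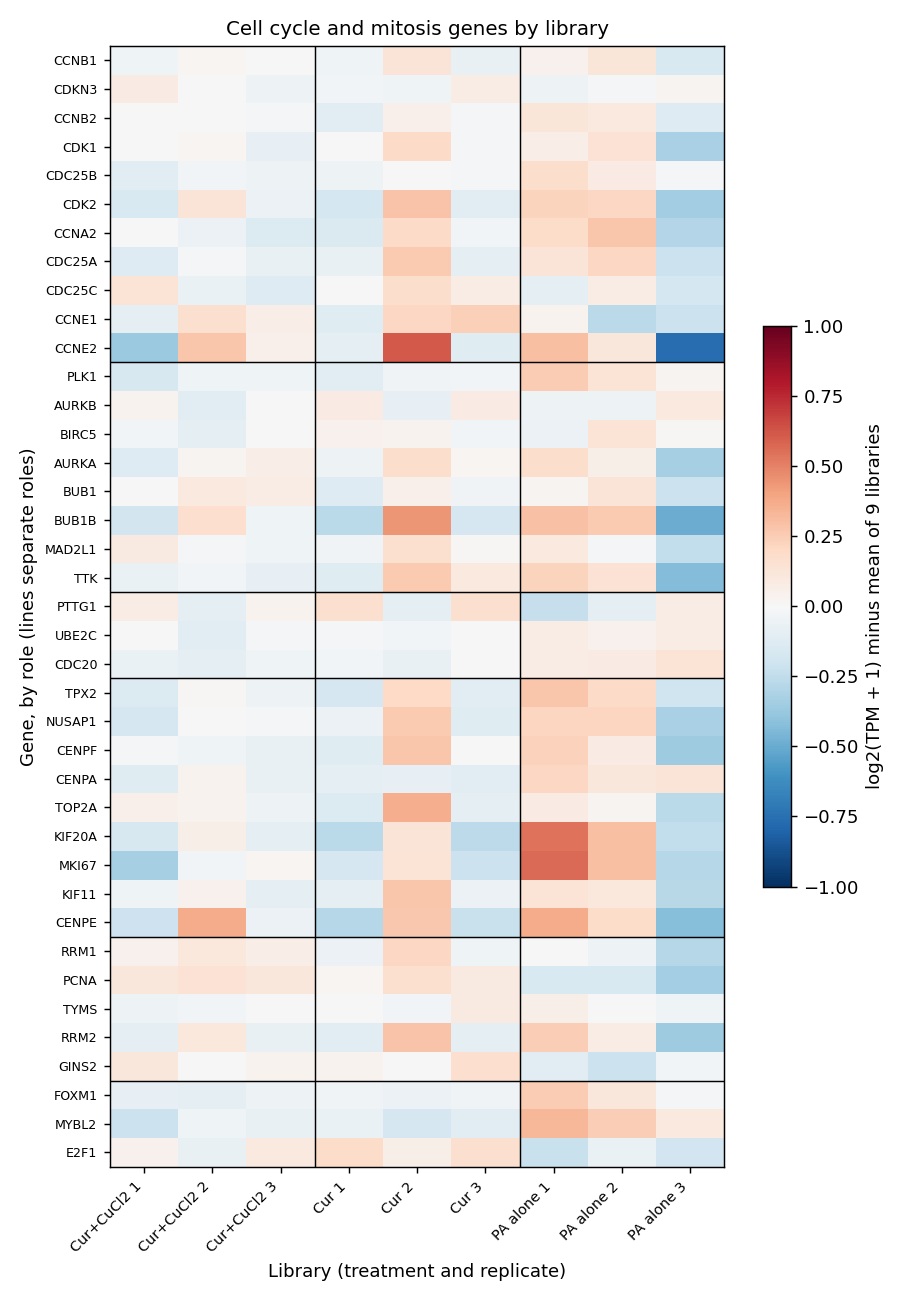
Heat map of log2(TPM + 1) minus the mean of the 9 libraries, with 1 row for each of the 39 genes grouped by role and 1 column for each library, the treated groups at the left and palmitic acid alone (PA) at the right. Replicate 3 of palmitic acid alone is the lowest of the 9 for 22 genes and replicate 2 of curcumin (Cur) the highest for 16, while PCNA is higher and MYBL2 lower in each of the 6 treated libraries than in each with palmitic acid alone, although MYBL2 did not pass the test.

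Set against palmitic acid alone, curcumin gave no difference that passed the test in any of these 39 genes. The test was limma with Benjamini-Hochberg adjustment over all 13443 genes at a threshold of 0.05, in which 1.96% of all genes passed, 0.759% higher and 1.21% lower. Fold changes were small. They ran on the log2 scale from -0.34 for MYBL2 to 0.31 for PCNA, with 19 positive and 20 negative, where 46.3% of all genes were positive. Their median was -0.0017, beside -0.02 for all genes kept. The 95% confidence interval lay within a 1.5-fold change in either direction for 34 of the 39, against 67.5% of all genes, and within a 2-fold change for all 39. The shares of all genes given beside these intervals, here and in the other comparisons, were not matched for level, and the members were the more abundant. At an unadjusted p under 0.05, 2 genes were higher and 4 lower, where 6.23% of all genes were higher and 7.79% lower. Libraries of the groups did not overlap for 3 genes that were higher with curcumin and 6 that were lower, where 8.15% and 8.61% of all genes did so. Such shares of 39 would be about 3 genes each, so the higher count is near the background and the lower one above it. The members tend to vary together, with a median pairwise r of 0.54 between their deviations from group means. They are thus not independent of each other, and the lower count was not tested against the background.

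Curcumin with CuCl2 was compared with the same palmitic acid libraries, so the comparisons share their controls. Here PCNA alone passed and was higher, where 1.44% of all genes passed, 0.543% higher and 0.900% lower. Fold changes of the 39 genes ran from -0.34 for MYBL2 to 0.34 for PCNA, 14 of them positive, against 43.8% of all genes. The median of -0.03 equalled that of all genes kept to 2 decimals. The interval lay within 1.5-fold for 36 of the 39, against 67.3% of all genes, and within 2-fold for all of them. At an unadjusted p under 0.05, 1 gene was higher and 5 were lower, against 5.57% and 7.97% of all genes. Libraries did not overlap for 3 higher and 7 lower genes, against 8.67% and 10.3% of all genes.

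Adding CuCl2 to curcumin was assessed by comparing those 2 treated groups. No cell cycle gene passed, and no gene of the 13443 did (0% called with limma). At an unadjusted p under 0.05, none of the 39 stood out, against 1.60% of all genes, which is 215 genes (0.766% higher and 0.833% lower). None of the 39 had libraries that did not overlap, against 6.24% of all genes (2.63% higher and 3.61% lower). Fold changes ran from -0.14 for CCNE2 to 0.11 for CENPE, with 9 of 39 positive, against 45.6% of all genes, and a median of -0.03 beside -0.0083 for all genes. Without replicate 2 of curcumin, the median of the 39 was 0.02. The interval lay within 1.5-fold for 37 of the 39, against 79.5% of all genes. The exceptions were CCNE2, at -0.84 to 0.55, and CENPE, at -0.44 to 0.66.

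**Figure D3:**
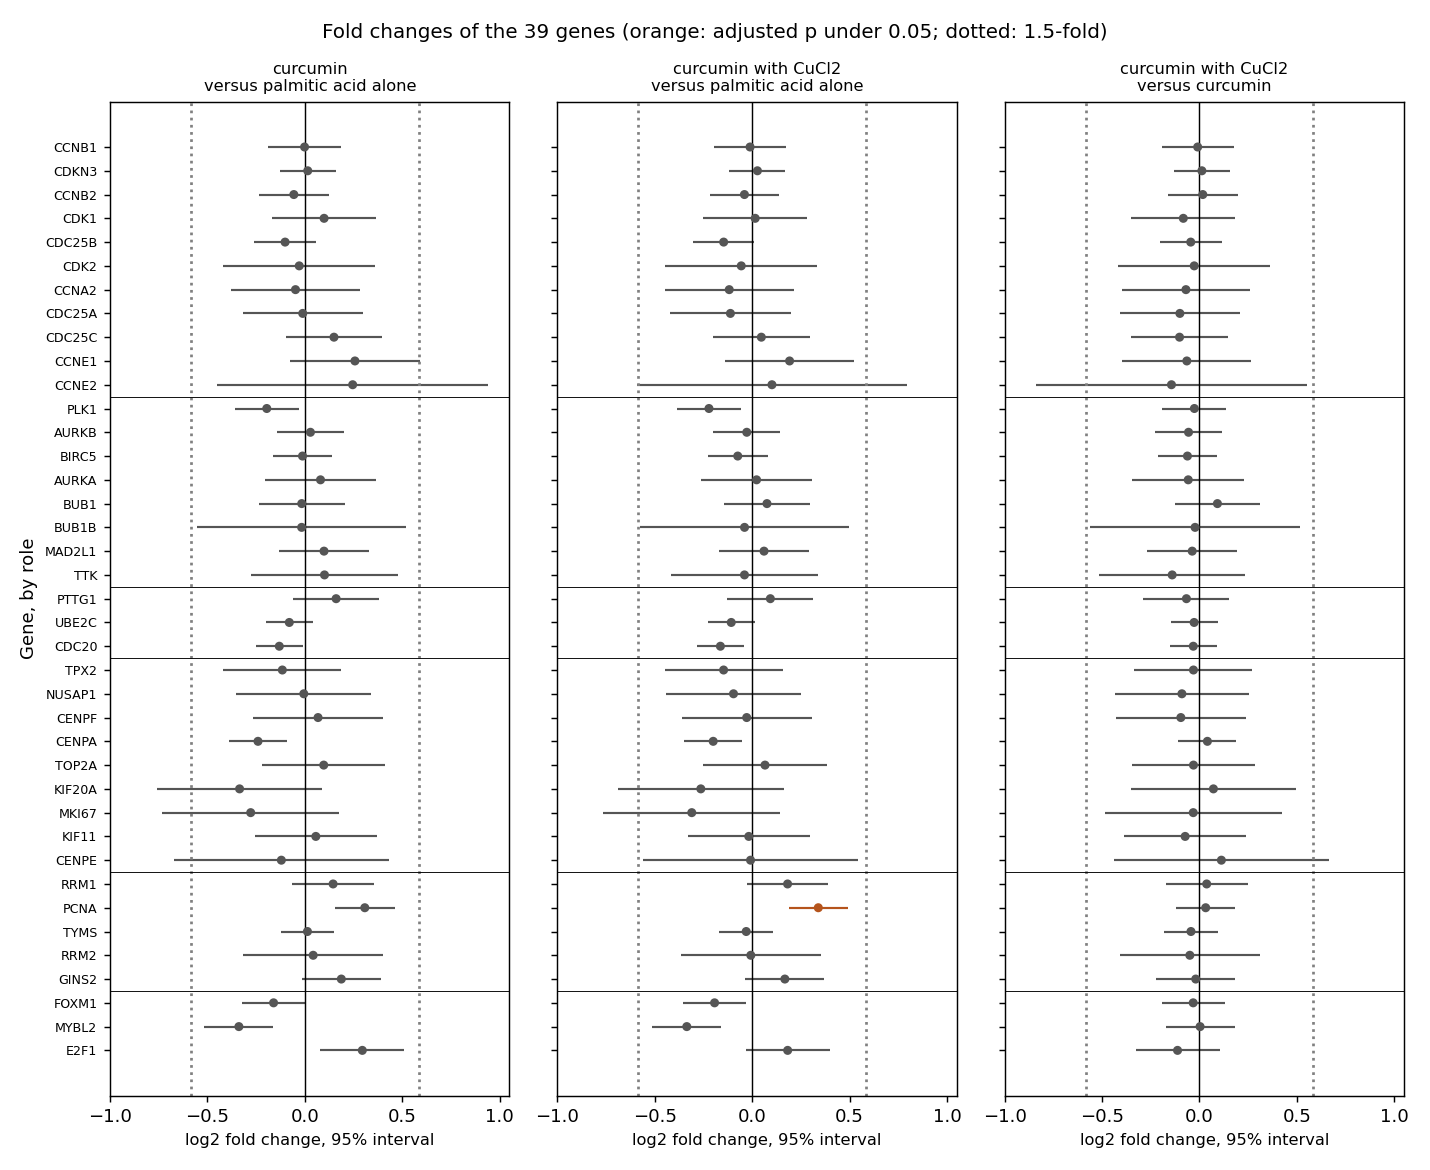
Log2 fold change (points) and 95% confidence interval (lines) of each of the 39 genes in the 3 comparisons, first-named group over second. Dotted lines mark 1.5-fold, orange marks an adjusted p under 0.05 and the single such gene is PCNA at 0.34 with curcumin and CuCl2.

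By the phase in which the genes are usually most active, the medians differed, but the sign of each median depended on the setting. The G1/S and S median lay above the G2 and M median in both comparisons with palmitic acid alone. That order held in the reported analysis and in all 19 alternatives, which reuse the same libraries. Of 11 genes of G1/S and S phase, 8 had a positive fold change with curcumin, with a median of 0.14. With curcumin and CuCl2, 6 of the 11 were positive and the median was 0.10. Of 28 genes of G2 and M, 11 were positive with curcumin, with a median of -0.01, and 8 with curcumin and CuCl2, with a median of -0.04. Without replicate 3 of palmitic acid alone, the G1/S and S median was -0.01 with curcumin and -0.06 with curcumin and CuCl2, and that of G2 and M was -0.11 and -0.15. With median-of-ratios scaling, the G2 and M median was 0.0096 with curcumin and -0.0057 with CuCl2, and 25 and 21 of all 39 genes were positive. The difference between the phases was not tested. Without replicate 3 of palmitic acid alone, the median over all 39 genes was -0.10 with curcumin and -0.14 with curcumin and CuCl2, beside medians of -0.09 and -0.10 over all genes.

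Promoter sequences are shown for PCNA, the gene that passed the test, and for CDC20, PLK1 and CENPA, 3 mitotic genes whose treated libraries all lay below those with palmitic acid alone. Each is the stretch of 150 bases before the RefSeq gene start on GRCh38.p14, written 5′ to 3′ on the gene's own strand. The CENPA and PLK1 stretches lie inside the gene spans of GENCODE release 29, which begin at 26764289 and 23677656. Positions of matches therefore hold for the RefSeq start only. Capitals mark every match, on either strand, to the cell cycle homology region motif (CHR, searched as TTTGAA or TTCGAA), to an E2F motif (TTTGGCGC, TTTCCCGC, TTTGCCGC or TTTCGCGC) or to the CCAAT box. CHR elements are bound by MuvB complexes in mitotic genes, CCAAT boxes by the factor NF-Y. None of these motifs shares bases with another within a printed stretch.
PCNA (chr20:5126623-5126772, minus strand): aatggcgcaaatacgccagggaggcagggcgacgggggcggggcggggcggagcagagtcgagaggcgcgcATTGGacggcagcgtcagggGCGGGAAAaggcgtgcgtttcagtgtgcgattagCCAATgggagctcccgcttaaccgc
CDC20 (chr1:43358831-43358980, plus strand): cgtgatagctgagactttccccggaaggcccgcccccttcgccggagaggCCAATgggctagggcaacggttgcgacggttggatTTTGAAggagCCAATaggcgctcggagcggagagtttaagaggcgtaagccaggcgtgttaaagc
PLK1 (chr16:23678739-23678888, plus strand): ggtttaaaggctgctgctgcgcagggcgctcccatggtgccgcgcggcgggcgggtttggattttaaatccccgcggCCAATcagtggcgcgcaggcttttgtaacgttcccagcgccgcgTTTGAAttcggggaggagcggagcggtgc
CENPA (chr2:26785906-26786055, plus strand): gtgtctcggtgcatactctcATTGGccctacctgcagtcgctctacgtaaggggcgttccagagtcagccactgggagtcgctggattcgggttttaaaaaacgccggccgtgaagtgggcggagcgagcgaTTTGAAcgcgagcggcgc
In PCNA the E2F match starts 59 bases before the gene start, and in CDC20, PLK1 and CENPA the CHR matches start 65, 29 and 18 bases before it. Of the 31 genes with a promoter in the table, 7 had an E2F match in the 250 bases before the start (22.6%), against 2.79% of 35116 promoters. A CHR match was present in 11 (35.5%), against 14.3% of all promoters, and a CCAAT box in 24 (77.4%), against 32.0%. By phase, E2F matches were found in 5 of 9 G1/S and S genes and 2 of 22 G2 and M genes, and CHR matches in 1 of 9 and 10 of 22. MYBL2, whose treated libraries also all lay below the controls, had no match to any of the 3 motifs in its 250 bases and is not printed, which says only that these letters are not in that window. These are matches of letters, not measured binding.

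Among the genes of DNA replication and nucleotide supply, PCNA encodes the sliding clamp that holds DNA polymerases on the template. It had 255, 261 and 254 TPM with curcumin and CuCl2, 239, 263 and 251 TPM with curcumin, and 211, 211 and 186 TPM with palmitic acid alone. All 6 treated libraries lay above the 3 with palmitic acid alone. With curcumin and CuCl2 it rose to 257 ± 3.85 TPM, against 203 ± 14.5 TPM with palmitic acid alone (SD, n = 3 each), a 1.27-fold difference (log2 0.34, SE 0.07, limma adjusted p = 0.0474). With curcumin it was 1.24-fold, at 251 ± 12.2 TPM (log2 0.31, 95% interval 0.15 to 0.46), and did not pass (limma adjusted p = 0.0584). The call with CuCl2 lay near the threshold and was made in 5 of 19 alternative analyses, with limma adjusted p from 0.000717 to 0.178 and a log2 fold change between 0.28 and 0.37. It was lost on leaving out any 1 library other than replicate 3 of palmitic acid alone. With that library left out the fold change was 0.28 (limma adjusted p = 0.0352), in a setting where 4.13% of all genes passed. PCNA lies on chromosome 20 at 5114953 to 5126626 on the minus strand (GRCh38). Its promoter is printed above, with 1 E2F match.

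RRM1 and RRM2 encode the subunits of ribonucleotide reductase, which makes deoxynucleotides, and TYMS encodes thymidylate synthase. RRM1, the most abundant of the 39, had 439, 459.7 and 447 TPM with curcumin and CuCl2, 409, 492 and 415 TPM with curcumin, and 428, 412 and 350.0 TPM with palmitic acid alone. Its CuCl2 libraries lay above those with palmitic acid alone, and its curcumin libraries overlapped both. The fold change was 0.18 with CuCl2 (95% interval -0.03 to 0.39) and 0.14 with curcumin, and neither passed. With replicate 3 of palmitic acid alone left out, RRM1 was at 0.094 and 0.057. GINS2 encodes a subunit of the replicative helicase complex and had the lowest level of this role. It had 22.0, 20.1 and 20.7 TPM with curcumin and CuCl2, 20.7, 20.2 and 22.9 TPM with curcumin, and 18.6, 17.3 and 19.8 TPM with palmitic acid alone. All treated libraries were above the controls, by a log2 fold change of 0.17 with CuCl2 and 0.19 with curcumin, without passing (limma adjusted p = 0.47 and 0.407). For TYMS and RRM2 the estimates were within 0.05 of zero in both comparisons with palmitic acid alone. TYMS had an interval of -0.17 to 0.11 with CuCl2 and -0.12 to 0.15 with curcumin. Leaving out replicate 3 of palmitic acid alone gave RRM2 fold changes of -0.18 with CuCl2 and -0.13 with curcumin, and TYMS -0.06 and -0.01.

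Among the transcription factors, the estimates pointed in opposite directions. E2F1 encodes an activator of DNA synthesis genes. It had 13.7, 12.6 and 14.2 TPM with curcumin and CuCl2, 15.2, 13.8 and 15.0 TPM with curcumin, and 11.2, 12.7 and 11.5 TPM with palmitic acid alone. The curcumin libraries lay above those with palmitic acid alone (log2 0.29, SE 0.10), while those with CuCl2 overlapped them (0.18, 95% interval -0.03 to 0.40). Neither difference passed (limma adjusted p = 0.185 with curcumin and 0.458 with CuCl2).

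MYBL2 encodes B-MYB, which joins the MuvB complex to activate genes of G2 and mitosis. It had 87.5, 98.6 and 96.5 TPM with curcumin and CuCl2, 96.8, 90.3 and 94.6 TPM with curcumin, and 128, 121 and 109 TPM with palmitic acid alone. Every treated library was lower than every library with palmitic acid alone. The mean was 94.2 ± 5.88 TPM with CuCl2 and 93.9 ± 3.29 TPM with curcumin, against 119 ± 9.58 TPM (SD, n = 3 each). The log2 fold change was -0.34 in either comparison (SE 0.08), the lowest estimate of the 39 genes in both. It did not pass (limma adjusted p = 0.0772 with CuCl2 and 0.0698 with curcumin). Without replicate 3 of palmitic acid alone it was -0.40 in either comparison and passed (limma adjusted p = 0.0255 with CuCl2 and 0.0219 with curcumin). In that setting 4.13% of all genes passed with CuCl2 and 4.71% with curcumin, against 1.44% and 1.96% with all 9 libraries. MYBL2 passed too with the mitochondrial share as a covariate, where 10.7% and 11.2% of all genes did. Without replicate 1 of palmitic acid alone it was at -0.28 with CuCl2 and -0.29 with curcumin. Neither passed there (limma adjusted p = 0.198 and 0.187). Over all 19 alternatives its limma adjusted p ran from 0.0189 to 0.291 with CuCl2 and from 0.019 to 0.21 with curcumin. The MYBL2 gene spans 43667019 to 43716496 of chromosome 20, plus strand, in GRCh38.

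FOXM1 encodes the forkhead factor that drives mitotic genes and was the most abundant of these factors. It had 119, 118 and 121 TPM with curcumin and CuCl2, 122, 121 and 123 TPM with curcumin, and 149.5, 136 and 125 TPM with palmitic acid alone. The treated libraries lay below the controls, narrowly so for replicate 3 of palmitic acid alone. The fold change was -0.19 with CuCl2 (95% interval -0.35 to -0.03) and -0.16 with curcumin, and neither passed (limma adjusted p = 0.258 and 0.357). With replicate 1 of palmitic acid alone left out, FOXM1 was at -0.13 with CuCl2 and -0.09 with curcumin. Without replicate 3 of that group instead it was at -0.26 and -0.22, still without passing (limma adjusted p = 0.0538 and 0.0744).

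**Figure D4:**
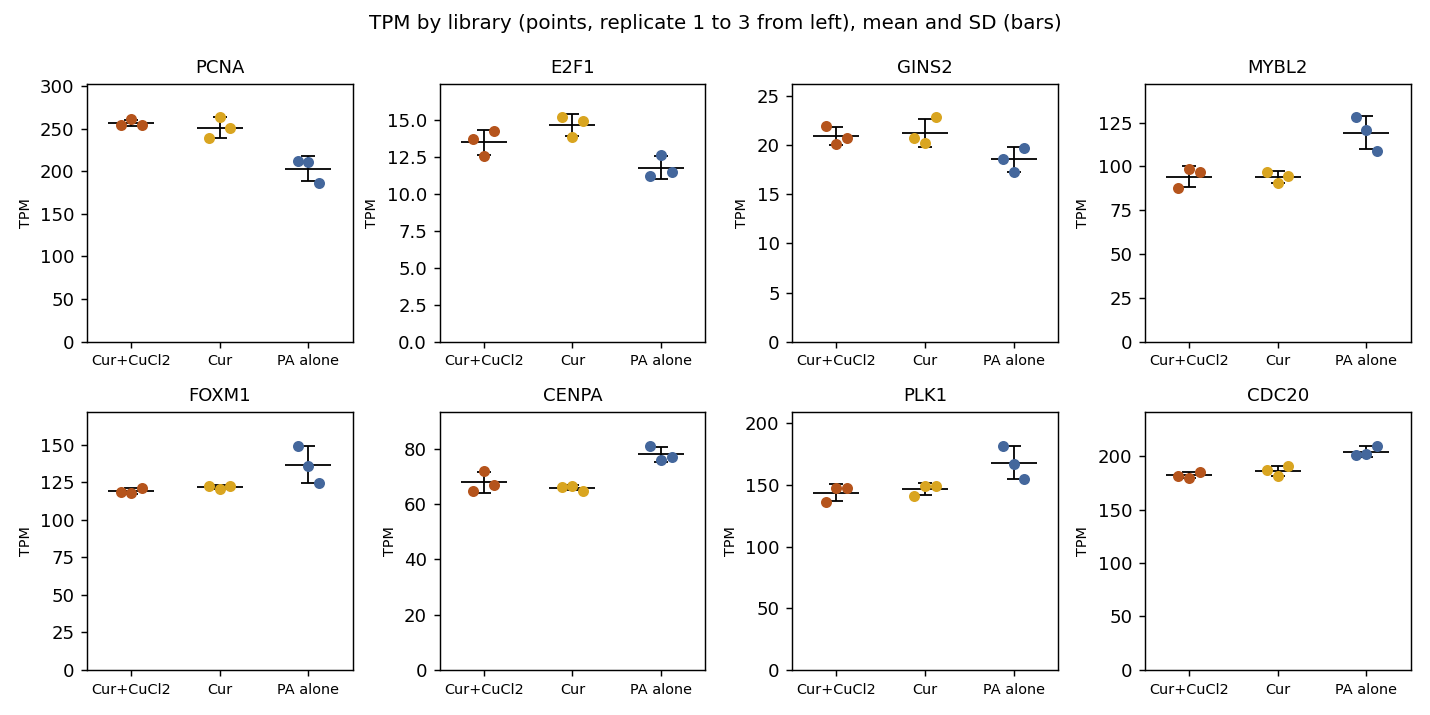
TPM of PCNA, E2F1, GINS2, MYBL2, FOXM1, CENPA, PLK1 and CDC20 in each library (points), with the mean and SD of 3 libraries (bars), for curcumin with CuCl2, curcumin (Cur) and palmitic acid alone (PA). PCNA averages 257 and 251 TPM in the treated groups against 203 TPM, and MYBL2 94.2 and 93.9 TPM against 119 TPM.

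Among cyclins and the enzymes that act with them, no gene had treated libraries wholly apart from the controls with curcumin, and CDC25B did with CuCl2. CCNB1, the cyclin that with CDK1 starts mitosis, was the most abundant. It had 229, 239 and 237 TPM with curcumin and CuCl2, 229, 258 and 225 TPM with curcumin, and 244, 257 and 213 TPM with palmitic acid alone. The groups overlapped, with a log2 fold change of -0.01 with CuCl2 (95% interval -0.20 to 0.17) and -0.0017 with curcumin (-0.19 to 0.18). CDK1 itself had intervals of -0.25 to 0.28 and -0.17 to 0.37 in those comparisons. Leaving out replicate 3 of palmitic acid alone gave CCNB1 -0.09 and -0.08, and CDK1 -0.13 and -0.04. CDC25B, a phosphatase that activates CDK1, had 57.6, 61.2 and 60.1 TPM with CuCl2 and 70.7, 66.1 and 61.8 TPM with palmitic acid alone, a difference of -0.15 that did not pass (limma adjusted p = 0.408). CDC25C, a related phosphatase, had 17.0, 14.6 and 14.0 TPM with curcumin and CuCl2, 15.4, 17.5 and 16.3 TPM with curcumin, and 14.3, 16.3 and 13.5 TPM with palmitic acid alone, and all groups overlapped.

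The E-type cyclins, which with CDK2 carry cells into S phase, were scarce. CCNE1 had 5.24, 6.44 and 5.97 TPM with curcumin and CuCl2, 5.12, 6.68 and 6.88 TPM with curcumin, and 5.84, 4.52 and 4.75 TPM with palmitic acid alone. CCNE2 had 3.68, 6.33 and 5.27 TPM, 4.65, 8.25 and 4.55 TPM, and 6.45, 5.55 and 2.57 TPM in the same order of groups. Both overlapped between all groups. The CCNE1 fold change was 0.19 with CuCl2 and 0.26 with curcumin, with intervals of -0.14 to 0.52 and -0.07 to 0.59. That of CCNE2 was 0.25 with curcumin, with an interval of -0.45 to 0.94, the widest of the 39. Leaving out replicate 3 of palmitic acid alone made it -0.08 with curcumin and -0.22 with CuCl2, and with curcumin it was 0.49 with the mitochondrial share as a covariate (limma adjusted p = 0.0186, and up to 0.997 over the 19 alternatives), so it gives no direction. The other members of this role, CDK2, CCNA2, CCNB2, CDC25A and CDKN3, had fold changes between -0.12 and 0.03 in both comparisons with palmitic acid alone, and between -0.29 and 0.05 with its replicate 3 left out. CDKN3 encodes a phosphatase that acts on cyclin-dependent kinases, and its interval was -0.12 to 0.17 with CuCl2.

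Among mitotic kinases and checkpoint genes, PLK1, the polo-like kinase of mitotic entry and spindle assembly, had the highest level. It had 136, 148 and 147 TPM with curcumin and CuCl2, 141, 149 and 149 TPM with curcumin, and 182, 167 and 155 TPM with palmitic acid alone. Every treated library was below every control. The log2 fold change was -0.22 with CuCl2 (SE 0.07, limma adjusted p = 0.196) and -0.20 with curcumin (limma adjusted p = 0.255), so neither passed. Without replicate 1 of palmitic acid alone PLK1 was at -0.16 with CuCl2 and -0.14 with curcumin. Without replicate 3 instead it was at -0.28 and -0.25, and it passed in neither setting. TTK, the kinase that starts the spindle checkpoint, had the lowest level. It had 23.3, 24.0 and 23.0 TPM with curcumin and CuCl2, 22.5, 29.6 and 26.2 TPM with curcumin, and 28.7, 27.2 and 17.9 TPM with palmitic acid alone, and its groups overlapped. BUB1, a checkpoint kinase of the kinetochore, had 48.8, 52.3 and 51.3 TPM, 44.7, 50.6 and 47.6 TPM, and 49.8, 53.6 and 41.8 TPM in the same order, also with overlap. AURKA and AURKB encode the Aurora kinases, and BIRC5 encodes survivin, a partner of AURKB in the chromosomal passenger complex. With BUB1, BUB1B, MAD2L1 and TTK, these had fold changes from -0.07 to 0.10 in the comparisons with palmitic acid alone. The interval of AURKB was -0.20 to 0.14 with CuCl2 and -0.14 to 0.20 with curcumin, and that of BIRC5 was -0.23 to 0.08 and -0.17 to 0.14. With replicate 3 of palmitic acid alone left out, the fold changes of these 7 genes ran from -0.30 for BUB1B to 0.08 for AURKB.

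Partners and a substrate of the anaphase-promoting complex were among the most abundant. CDC20, which activates the complex in mitosis, had 182, 179 and 186 TPM with curcumin and CuCl2, 187, 182 and 190.4 TPM with curcumin, and 201, 202 and 210.0 TPM with palmitic acid alone. All treated libraries were lower than the controls, but the difference was small, -0.16 with CuCl2 (SE 0.05, limma adjusted p = 0.193) and -0.13 with curcumin (limma adjusted p = 0.304). UBE2C, which encodes a ubiquitin-conjugating enzyme of the complex, had 201, 187 and 199.6 TPM, 199, 198 and 202 TPM, and 212, 208 and 213 TPM in the same order. Its treated libraries also lay below the controls, by -0.11 with CuCl2 and -0.08 with curcumin, without passing. PTTG1 encodes securin, which the complex destroys to let sister chromatids part. It had 306, 273 and 298 TPM with curcumin and CuCl2, 325, 272 and 324 TPM with curcumin, and 247, 271 and 306 TPM with palmitic acid alone, and the groups overlapped. Its fold change was 0.09 with CuCl2 and 0.16 with curcumin, and 0.17 and 0.24 with replicate 3 of palmitic acid alone left out.

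Genes of the spindle, the kinetochore and mitotic chromosomes gave mostly negative estimates, 8 of 9 with CuCl2 and 6 of 9 with curcumin, with medians of -0.10 and -0.12, and none passed. Without replicate 3 of palmitic acid alone all 9 were negative in both comparisons, with medians of -0.24 and -0.25. Leaving out replicate 1 of that group instead, 5 and 4 were negative, with medians of -0.0056 and 0.04. CENPA encodes the histone H3 variant that marks centromeres. It had 64.7, 71.9 and 66.8 TPM with curcumin and CuCl2, 66.2, 66.5 and 64.8 TPM with curcumin, and 81.2, 76.0 and 76.9 TPM with palmitic acid alone. Every treated library was below every control, and here replicate 3 of palmitic acid alone did not stand apart from replicates 1 and 2. The log2 fold change was -0.20 with CuCl2 (SE 0.07, limma adjusted p = 0.2) and -0.24 with curcumin (limma adjusted p = 0.116). In GENCODE release 29, CENPA lies on chromosome 2 at 26764289 to 26801067, a span that begins before the RefSeq start used for its promoter. It shares bases on the same strand with SLC35F6, at 29.4 TPM, so how reads were split between the pair is uncertain.

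MKI67, the gene of the proliferation marker Ki-67, had 30.2, 37.5 and 38.6 TPM with curcumin and CuCl2, 33.9, 42.1 and 32.7 TPM with curcumin, and 57.2, 47.3 and 31.2 TPM with palmitic acid alone. KIF20A, a kinesin gene of late mitosis, had 45.6, 53.4 and 47.9 TPM, 42.2, 56.0 and 42.4 TPM, and 75.1, 63.1 and 43.0 TPM in the same order. For both genes, replicates 1 and 2 of palmitic acid alone were above every treated library and replicate 3 was among the low ones. The fold change of MKI67 was -0.31 with CuCl2 (95% interval -0.76 to 0.14) and -0.28 with curcumin (-0.73 to 0.18), and that of KIF20A was -0.26 and -0.34. Without replicate 3 of palmitic acid alone they were -0.55 and -0.52 for MKI67 and -0.49 and -0.56 for KIF20A, and without replicate 1 instead -0.12 and -0.09, and -0.09 and -0.16. They did not pass in any of the 19 alternatives. CENPE, a kinetochore kinesin gene, had 4.69, 7.47 and 5.28 TPM, 4.38, 6.91 and 4.63 TPM, and 7.49, 6.45 and 3.87 TPM in the same order, with wide overlap. TPX2, a spindle assembly factor gene and the most abundant of this role, had 91.6, 102 and 97.2 TPM, 89.6, 116 and 93.0 TPM, and 122, 115 and 87.6 TPM. Its fold change was -0.15 with CuCl2 and -0.12 with curcumin, and -0.29 and -0.26 with replicate 3 of palmitic acid alone left out. KIF11, TOP2A, CENPF and NUSAP1 had fold changes between -0.10 and 0.10, and between -0.28 and -0.01 with that library left out.

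Other genes of the cycle were read from 8 lists holding 178 genes, of which 176 passed the filter. With curcumin, none of these was higher and 2 were lower, and with curcumin and CuCl2 1 was higher and 1 was lower. Over all genes, 0.759% were higher and 1.21% lower with curcumin, and 0.543% and 0.900% with CuCl2, so the counts among the 176 are near the background. Their median fold change was 0.01 with curcumin and -0.03 with CuCl2. Medians of these lists, together or singly, were not followed in the alternatives, so their dependence on single libraries was not tested. Of 18 quiescence and growth arrest genes, 16 passed the filter, with a median of -0.17 with CuCl2 and -0.30 with curcumin, and the calls there were both GADD45 genes, which encode stress sensors that bind PCNA and can halt the cycle. GADD45A had 378, 377 and 378 TPM with curcumin and CuCl2, 382, 362 and 368 TPM with curcumin, and 460.1, 502 and 451 TPM with palmitic acid alone. It fell by 0.32 on the log2 scale with CuCl2 (limma adjusted p = 0.0325) and by 0.34 with curcumin (limma adjusted p = 0.0221). All 6 treated libraries were below the controls. GADD45B had 49.8, 44.6 and 43.9 TPM with curcumin and 61.1, 59.7 and 62.0 TPM with palmitic acid alone, a fall of 0.40 (log2 fold change -0.40, limma adjusted p = 0.0458). With CuCl2 it had 46.3, 52.3 and 45.1 TPM, a difference of -0.34 that did not pass (limma adjusted p = 0.0792). The calls of GADD45A were made in 7 of 19 alternatives with CuCl2 and 8 of 19 with curcumin, that of GADD45B in 6 of 19, with no change of sign.

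ANAPC16, a subunit gene of the anaphase-promoting complex, rose with curcumin and CuCl2, at 73.9, 74.9 and 72.7 TPM against 59.2, 57.9 and 58.1 TPM with palmitic acid alone (log2 0.33, limma adjusted p = 0.0338, called in 8 of 19 alternatives). With curcumin it had 67.4, 71.1 and 65.7 TPM, a difference of 0.22 that did not pass. It was the only call among the 17 genes of that complex and its regulators in these comparisons. ANAPC11, the catalytic RING subunit gene, had the largest estimate of that list without passing, 0.54 with CuCl2 and 0.50 with curcumin (limma adjusted p = 0.0999 and 0.118). In the list of D-type cyclins, their kinases, inhibitors and pocket proteins, 21 of 22 genes passed the filter and none passed the test. The lowest estimate there was that of CDKN1C, the gene of the inhibitor p57, at 2.57 ± 0.0557 TPM with CuCl2 and 2.60 ± 0.437 TPM with curcumin, against 4.41 ± 0.312 TPM (limma adjusted p = 0.0743 and 0.0695). No gene passed among 15 E2F, DREAM and MuvB factors, 25 other kinesin and spindle genes, 33 other kinetochore and checkpoint genes, 17 condensin and cohesin genes or 35 other replication genes. Their medians lay between -0.07 and 0.10 in the comparisons with palmitic acid alone. The largest estimates were those of MYBL1 (-0.21), ARHGAP11A (-0.30), KNL1 (0.27), SMC1A (-0.16) and CHAF1B (0.30) with curcumin, and E2F2 (0.23), ARHGAP11A (-0.47), OIP5 (0.28), SMC1A (-0.20) and POLE2 (0.40) with CuCl2. When CuCl2 was added to curcumin, no listed gene passed, and the estimates farthest from 0 in each list ran from -0.27 for FZR1 to 0.34 for POLE2.

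Several of the 39 genes overlap genes on the opposite strand. TYMS overlaps ENOSF1, with a mean of 79.8 TPM, FOXM1 overlaps RHNO1 at 60.5 TPM, CCNA2 overlaps EXOSC9 at 59.1 TPM, and KIF20A overlaps BRD8 and CDC23 at 48.4 and 29.1 TPM. CCNE2, itself at only 5.26 TPM, overlaps NDUFAF6 and INTS8 at 26.8 and 24.1 TPM. CDC25C overlaps FAM53C at 14.4 TPM, and GINS2 overlaps GSE1 at 12.9 TPM. The library kit marks strand, but the strand setting of the counting is not given in the sources used here, so reads of such pairs may not be told apart. Lines named as processed copies of the members were nearly empty, the highest being CDC20P1 at 0.75 TPM.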

How the data were processed

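Messenger RNA was sequenced in 9 libraries made with a stranded kit, per the labels' protocols. The authors deposited TPM values for 62703 genes, with columns summing to between 999999 and 1000001. The submitters' processing notes name HISAT2 2.1.0, RSEM 1.3.3 and GRCh38.p13, without roles. TPM keeps no depth, so the reads behind a value are unknown, and it is relative to the library, so a shift in RNA per cell would not show.

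Columns and groups were matched to samples by title. Values were taken as log2(TPM + 1), which understates changes of low genes. The 13443 genes averaging 1 TPM or more were fitted in limma 3.58.1 (R 4.3.3) over all 9 libraries, 1 mean per group, with a variance trend. Tests were two-sided with Benjamini-Hochberg adjustment over all genes. SE is the standard error, and 95% intervals are not adjusted. The code was tested on simulated data. The 19 alternatives varied the pseudocount (0.1 or 5), the filter (none or 5 TPM), the scaling (median-of-ratios, or without mitochondrial genes), the model (the pair of groups alone, a replicate block, no trend, or the mitochondrial share as covariate) and the libraries (each left out).

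Members, lists and tests were chosen with earlier results of these data known. Values by library are given for members past the threshold, for the 4 largest and 4 smallest fold changes in each comparison, and for the highest and lowest level in each role. Of the other lists, genes past the threshold (at most 3 a comparison), or the largest estimate, are named. UBE2C and CDC25B were added after values were seen, for libraries that did not overlap, as was a second value for ANAPC11, and medians by phase and role under each alternative were added then too. Coordinates and transcript lengths (median over coding transcripts, UTRs included) are from GENCODE release 29 on GRCh38, promoters from RefSeq on GRCh38.p14, where 31 of 39 genes matched. CDK2, CCNE2, AURKA, TTK, BIRC5, FOXM1, UBE2C and TPX2 did not.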

Additional observations from a re-analysis of the deposited data

How the results depend on the processing

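The count of cell cycle genes past the threshold ran from 0 to 6 over the 19 alternatives. With curcumin it was 0, but 1 with a minimum of 5 TPM or with median-of-ratios scaling, which was PCNA, and 6 with the mitochondrial share as a covariate, which were PCNA, RRM1 and CCNE2 higher and MYBL2, CENPA and CDC20 lower, in a setting where 11.2% of all genes passed. Leaving out single libraries gave 0 to 2. The 2 came without replicate 3 of palmitic acid alone (PCNA higher, MYBL2 lower), where 4.71% of all genes passed. With curcumin and CuCl2 the count of 1 became 0 with a pseudocount of 0.1, without a filter, without mitochondrial genes, with only the 2 groups compared, without a variance trend and with the replicate block, and 6 with the mitochondrial share as a covariate (PCNA and RRM1 higher, MYBL2, CENPA, CDC20 and PLK1 lower), where 10.7% of all genes passed. Leaving out single libraries gave 0 to 2, the call of PCNA being lost without any 1 of the 9 but replicate 3 of palmitic acid alone. Without that replicate, 4.13% of all genes passed. Between the treated groups the count of cell cycle genes was 0 throughout.

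Over all genes, the 264 calls with curcumin became 104 without a filter, 45 with only the 2 groups compared, 130 without a variance trend and 1505 with the mitochondrial share as a covariate (57.3% of them higher, against 38.6%), and 55 to 633 without single libraries. The 194 with CuCl2 became 114, 65 and 1436 without a filter, with only the 2 groups and with that covariate (53.0% higher, against 37.6%), and 49 to 555 without single libraries. Between the treated groups, 0 became 1 with a pseudocount of 5, 3 without a filter, 3 with only the 2 groups compared, and 0 to 4 without single libraries. The replicate block gave 177, 147 and 0 calls. The labels do not state whether replicate numbers pair the libraries. Deviations from group means correlated at -0.27 to 0.25 between same-numbered libraries and at -0.38 to 0.26 between the others. Such deviations sum to 0 within each group, so these values cannot decide whether cultures were paired. The block is therefore given only as an alternative, and the call of PCNA with CuCl2 was lost under it.

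Of the fold changes followed singly, 5 values changed sign, none of a gene that passed as first tested. With single libraries left out, CCNE2 with curcumin lay between -0.078 (without replicate 3 of the palmitic acid group) and 0.45 (without its replicate 1). With CuCl2 added to curcumin, leaving out single libraries gave CCNE2 -0.29 to 0.10, CENPA -0.0021 to 0.073 and CENPE -0.055 to 0.29. The opposite sign came for CCNE2 without replicate 1 of curcumin with CuCl2 (0.034) or replicate 2 of curcumin (0.098), and for CENPA and CENPE without replicate 2 of curcumin with CuCl2. The causes were not tested. Depth is unknown, and 3 libraries a group limit the precision most for CCNE2, CENPE and BUB1B, whose intervals are the widest.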
